A study of Homo sapiens with 6 samples.

Results

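The genes described here are the human heat shock proteins and the J-domain co-chaperones that work with them. They were chosen by name, as the protein-coding genes whose symbol starts with HSPA, HSPB, HSPD, HSPE, HSPH or HSP90, or with DNAJA, DNAJB or DNAJC and a digit. HSPA5, HSP90B1, HSPB11, DNAJB9 and DNAJC28 were left out by the same rule. The rule used no measured value. It found 73 of the 58735 genes in the count table, of which 19951 are protein-coding. Of the 73, 60 passed the filter on low counts and were tested, and 13 did not.

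The study measured messenger RNA in RPE-1 cells, an established human line of retinal pigment epithelial origin. This derivative carries CETN2 fused to GFP, which marks centrioles, and PLK4, the kinase that starts centriole duplication, behind a doxycycline-inducible promoter. The siSON group (3 libraries) received an siRNA against SON, a nuclear speckle protein needed for efficient splicing, and the siControl group (3 libraries) received a scramble siRNA. Doxycycline at 1 µg/mL was given to both groups, so PLK4 induction is shared by the controls, and no uninduced cells entered the comparison. The question is how mRNA abundance differs once SON is depleted in such cells.

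Heat shock proteins are chaperones that bind unfolded or partly folded proteins. HSP70 proteins bind and release a client in a cycle driven by ATP. J-domain proteins, the DNAJ genes, deliver clients and speed up ATP hydrolysis. Nucleotide exchange factors such as the HSP110 proteins reset the cycle. HSP90 takes over many clients at a later stage, the small heat shock proteins hold unfolded protein without ATP, and the chaperonin of HSPD1 and HSPE1 folds proteins inside mitochondria. Part of the family is made at all times, and another part is switched on by the transcription factor HSF1, which binds heat shock elements, repeats of nGAAn in alternating orientation.

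Library totals ran from 54572365 to 69764836 counts, so 3 counts correspond to between 0.0402 and 0.0590 CPM, the unit of counts scaled to a common library size with the TMM factors, a limit from counting error alone. SON itself was at 295, 313 and 284 CPM in siControl and at 68.0, 70.0 and 65.0 CPM in siSON, a change of -2.14 on the log2 scale (SE 0.057, adjusted p = 6.78e-10, edgeR). Epithelial keratins were abundant in each library (KRT8 556 to 778 CPM, KRT18 208 to 622 CPM), and MITF and BEST1 were present at 21.4 to 32.0 and 7.71 to 14.8 CPM. The markers of differentiated pigment epithelium RPE65 and RLBP1 stayed at or under 0.258 and 0.0937 CPM and TYR at 0, while PMEL ran from 0.172 to 2.12 CPM. Markers of leukocytes, endothelium, other epithelia and hepatocytes were low, the highest being PTPRC at 1.98 CPM. KRT18 and MITF were among the markers higher in siSON, and PMEL, PTPRC and PECAM1 were lower. The part of these shifts in the results below was not tested.

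Sequences are shown for the members whose promoter window holds an exact match to 1 strict form of the heat shock element. They show where that form of the HSF1 binding motif sits in this gene set. A RefSeq promoter window (GRCh38.p14, 250 bases before to 50 bases after the start in RefSeq) was matched for 54 of the tested members and searched on both strands for 3 GAA units in alternating orientation, each separated from the next by 2 bases of any kind. The motif was present in 4 of these 54 members (7.41%) and in 0.490% of 35116 promoters of the same length. It lay within chr9:33025268-33025296 (plus strand) in DNAJA1, with the motif starting 4 bases into the RefSeq transcript. In DNAJB6 it lay within chr7:157336865-157336893 (plus) and in HSPA6 within chr1:161524458-161524486 (plus). HSPA8 held 1 copy within chr11:123062346-123062374 and another within chr11:123062171-123062199 (both minus). Each line gives the 29 bases of such a stretch, read 5′ to 3′ along the gene's strand, with the 13 bases of the motif in capitals.
DNAJA1: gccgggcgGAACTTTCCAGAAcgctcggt
DNAJB6: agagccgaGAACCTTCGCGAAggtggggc
HSPA6: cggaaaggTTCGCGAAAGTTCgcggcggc
HSPA8, distal copy: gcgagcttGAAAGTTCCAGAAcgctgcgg
HSPA8, proximal copy: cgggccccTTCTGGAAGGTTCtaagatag
Counted from the RefSeq start, the distal HSPA8 copy begins 230 bases upstream and the proximal copy 55 bases upstream, the HSPA6 copy 74 and the DNAJB6 copy 131 bases upstream. The DNAJB6 and HSPA8 mRNAs were called higher in siSON and those of DNAJA1 and HSPA6 were not called, with values given below. The GENCODE spans of DNAJA1, DNAJB6 and HSPA8 begin further upstream, so these matches lie inside those spans, while the HSPA6 match lies before the GENCODE start too. A match describes letters in this window and no more. A window without a match may hold heat shock elements of another form, and sequence outside the window was not searched.

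Between siSON and siControl, 46 of the 60 members tested were called changed (76.7%) at an adjusted p under 0.05. Of all 16591 genes tested, 71.7% were called, and of protein-coding genes 77.4%, so the share among the members is close to the background. Higher in siSON were 32 of the 60 members and lower were 14 of 60, against 35.2% higher and 36.5% lower over all genes. The median log2 fold change was 0.28 over the members, against -0.03 over all genes and 0.03 over protein-coding genes. Changes were mostly small. The 2-fold mark was passed by 10 members (16.7%, against 29.3% of all genes and 27.3% of protein-coding genes). Of these, 2 rose, DNAJB6 and HSPA14, where 8.72% of all genes rose that far. The other 8 fell (HSPB6, DNAJC12, DNAJB5, DNAJC22, DNAJC4, DNAJC19, HSPA2 and DNAJC18), where 20.5% of all genes did. The 3 values of each group did not overlap for 51 of the 60 members, against 75.1% of all genes.

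The direction of many small changes depends on how libraries are scaled, and most of the abundant heat shock genes are among them. The values in the text use trimmed mean of M values (TMM) scaling. With library size alone, the median of all genes moved by -0.20, to -0.22, and 25 members were higher and 18 lower. With cyclic loess, which removes any trend of the fold change with abundance, 27 were higher and 23 lower. The share of higher members among those called was 69.6% with TMM, 58.1% with library size alone and 54.0% with cyclic loess. The members' median exceeded that of all genes by 0.31 with TMM and with library size alone, and by 0.01 with cyclic loess. Direction and call were the same under TMM, relative log expression factors, library size alone and cyclic loess for 37 of the 60 members.

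**Figure D1:**
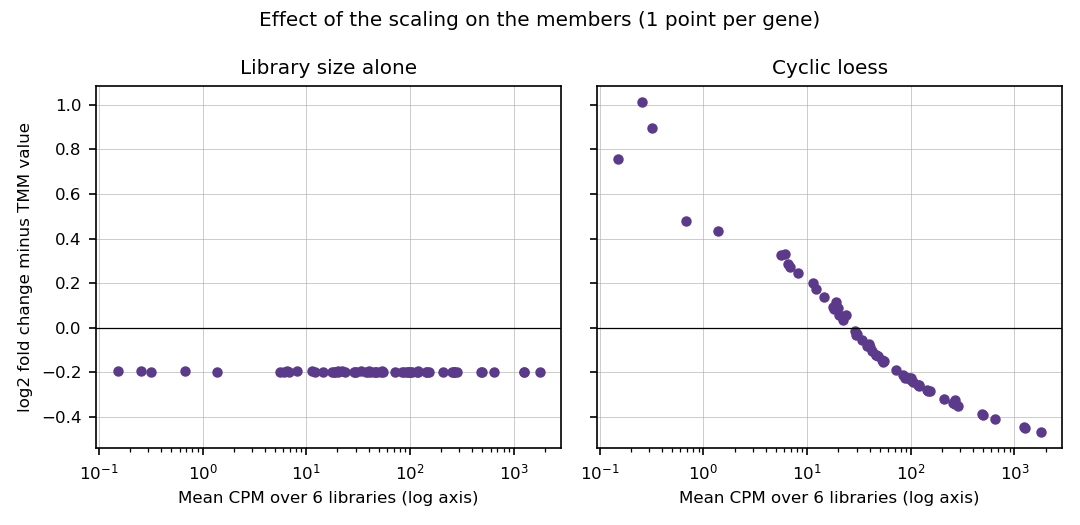
Change in each tested member's log2 fold change (y axis) against its mean CPM over the 6 libraries (x axis, log scale) when TMM scaling is replaced by library size alone (left) or cyclic loess (right). Library size alone moves each member down by nearly the same amount, and cyclic loess lowers abundant members and raises scarce ones.

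Without any scaling factor, as a share of each library's counts, the members together made up 0.868%, 0.878% and 0.912% in siControl and 1.07%, 1.05% and 1.07% in siSON. All siSON libraries lay above all siControl libraries. HSP genes went from 0.626% ± 0.018 to 0.754% ± 0.00815 and DNAJ genes from 0.260% ± 0.00546 to 0.309% ± 0.00416 (mean ± SD, n = 3 per group, no test). The 6 most counted members held 59.8% ± 0.399 of the members' counts in siControl and 61.0% ± 0.218 in siSON.

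Per kilobase of exon, the most abundant members in siControl were the small heat shock protein HSPB1 at 340.0 ± 7.78 CPM per kb, HSP90AA1 at 308 ± 19.0, HSP90AB1 at 295 ± 10.7 and HSPA8 at 225.0 ± 7.51 CPM per kb (SD, n = 3). HSP90AA1 and HSP90AB1, neighbours in this order, did not differ beyond their spread. HSPD1 followed at 103 ± 4.69 CPM per kb. In siSON the first place went to HSP90AB1 at 542 ± 20.6 CPM per kb, ahead of HSPB1 at 454 ± 13.4, HSP90AA1 at 377 ± 14.1 and HSPA8 at 297 ± 2.44 CPM per kb. These levels do not overlap between neighbours in siSON.

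**Figure D2:**
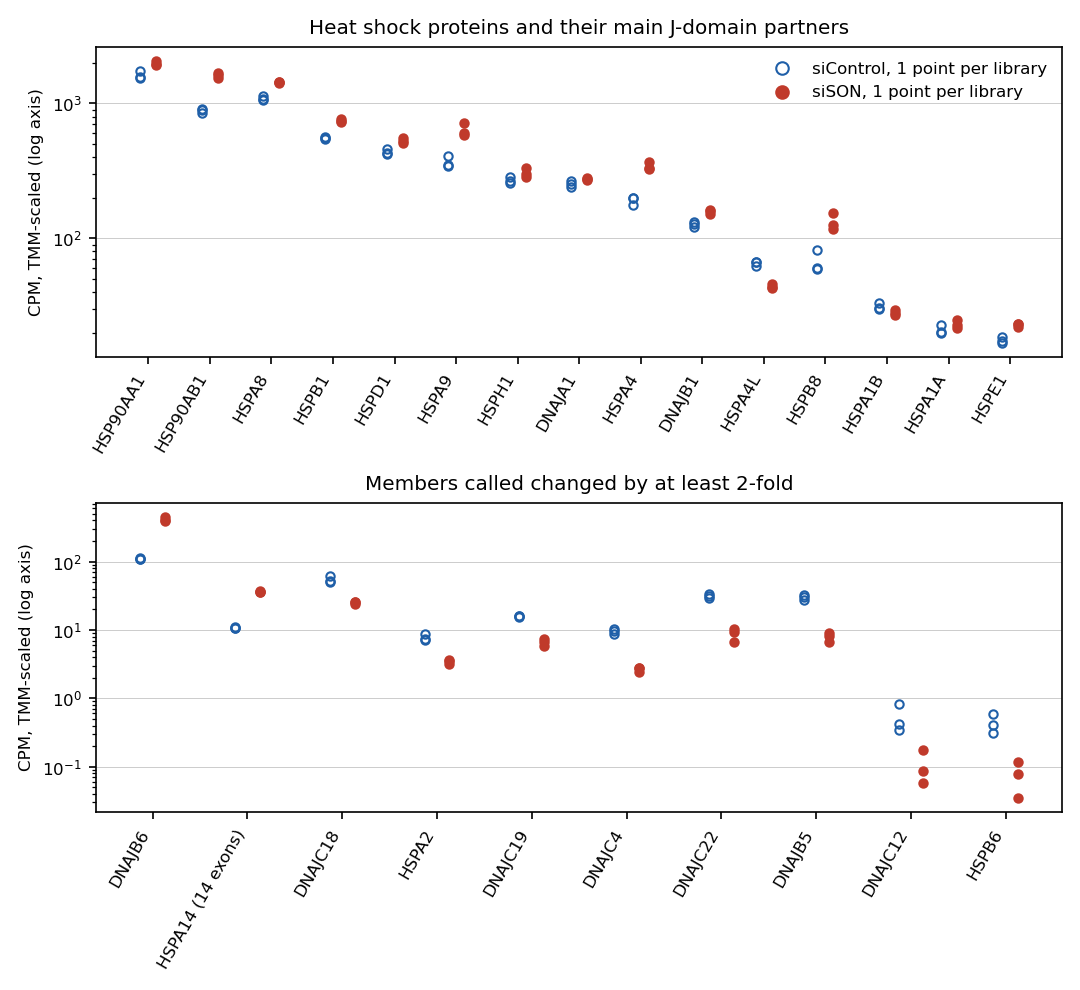
CPM with TMM scaling (y axis, log scale) of 15 heat shock proteins and J-domain partners (top) and of the 10 members called changed by at least 2-fold (bottom), 1 point per library, open for siControl and filled for siSON. Most shifts in the top panel are small against the distance between genes, and in the bottom panel the 2 groups are apart for each gene.

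HSP90, the ATP-driven chaperone of kinases and steroid receptors, is encoded in the cytosol by a constitutive gene, HSP90AB1, and a heat-inducible one, HSP90AA1. Both were called higher in siSON, the constitutive gene by more. HSP90AB1 (chr6:44246166-44253888, plus strand, GRCh38, 12 exons) was at 891, 844 and 905 CPM in siControl and 1678, 1555 and 1613 CPM in siSON. The groups were far apart, with a change of 0.88 on the log2 scale (SE 0.050, adjusted p = 4.53e-08), and the call held under library size alone (0.68) and cyclic loess (0.43). HSP90AA1 (chr14:102080738-102139699, minus strand, 12 exons) was at 1538, 1579 and 1728 CPM in siControl and 1916, 1963 and 2061 CPM in siSON. Its groups did not overlap either, but the change was 0.29 on the log2 scale (SE 0.055, adjusted p = 0.000541). It was no longer called with library size alone (0.10, adjusted p = 0.137) and was called lower with cyclic loess (-0.17, adjusted p = 0.0127). HSP90AA1 overlaps WDR20 on the other strand, and whether the authors' counting used strand is not given in the sources used here.

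A ratio of counts within 1 library does not depend on a factor applied to that whole library. Cyclic loess, which scales genes by their level, left the sign of 7 of the 8 ratios given here as it was and turned HSPA8 over HSPA1A (from 0.26 to -0.22 on the log2 scale). HSP90AB1 over HSP90AA1 was 0.579, 0.535 and 0.524 in siControl and 0.876, 0.792 and 0.783 in siSON. The lowest siSON ratio was above the highest siControl ratio, and the mean went from 0.546 ± 0.0293 to 0.817 ± 0.0511. For this ratio and the 7 others below, the 2-sided exact permutation p was 0.1, the smallest that 3 libraries against 3 allow, and 0.1 after Benjamini-Hochberg adjustment over the 8 ratios. These pairs were chosen after their values were seen, so the ratios describe these libraries.

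Of the 11 HSP70 genes tested, 3 were called higher, 1 lower and 7 were not called, with a median log2 fold change of 0.06. The share called was 36.4%. For this group and those below, the shares over all genes were 71.7% called, 35.2% higher and 36.5% lower. With library size alone or with cyclic loess the counts were 3 higher and 4 lower. HSPA8 (chr11:123057489-123063230, minus strand, 9 exons), the constitutive cytosolic HSP70, was at 1060.0, 1082 and 1131 CPM in siControl and 1428, 1441 and 1451 CPM in siSON. This was a tight shift of 0.40 on the log2 scale (SE 0.045, adjusted p = 9.94e-06). It stayed called with library size alone (0.20) and was -0.05 (adjusted p = 0.305) with cyclic loess. HSPA8 introns host the small nucleolar RNAs SNORD14C, SNORD14D and SNORD14E, and 17 pseudogenes carry its name. The pseudogenes held 0.0681% of the counts of gene plus pseudogenes in siControl and 0.0619% in siSON.

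HSPA9, the mitochondrial HSP70 that pulls proteins through the inner membrane, was at 405, 343 and 352 CPM in siControl and 716, 585 and 605 CPM in siSON. The first library of each group was the highest, and the groups did not overlap. The change was 0.79 on the log2 scale (SE 0.085, adjusted p = 9.18e-06) and the gene stayed called with library size alone (0.60) and cyclic loess (0.40). HSPA9 over its chaperonin neighbour HSPD1 went within libraries from 0.837 ± 0.0896 to 1.21 ± 0.178.

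HSPA1A (chr6:31815464-31817946) and HSPA1B (chr6:31827735-31830255) encode the heat-inducible HSP70, and each has 1 exon and no intron. Both were low next to HSPA8, and neither was called. HSPA1A was at 19.9, 22.8 and 20.2 CPM in siControl and 21.5, 24.95 and 22.9 CPM in siSON, with overlapping groups and a log2 fold change of 0.14 (95% interval -0.05 to 0.33, adjusted p = 0.17). HSPA1B was at 30.6, 32.9 and 30.2 CPM in siControl and 26.8, 28.2 and 29.3 CPM in siSON. Its groups did not overlap, and the log2 fold change was -0.15 (95% interval -0.31 to 0.00, adjusted p = 0.0735). HSPA1B became a call with library size alone (-0.35, adjusted p = 0.00134), with a mean count of at least 50 (-0.21, adjusted p = 0.0165), with cyclic loess (-0.18, adjusted p = 0.0311) and without siControl replicate 1 (-0.19, adjusted p = 0.0484). The coding sequences of the 2 genes are 99.8% identical, with 4 differences over 1926 bases, so reads can be split between them by the counting and the ratio of HSPA1B to HSPA1A (1.49 ± 0.0454 and 1.22 ± 0.0797) is uncertain. HSPA8 over HSPA1A was 52.2 ± 4.32 in siControl and 62.6 ± 4.40 in siSON.

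HSPA6, an HSP70 known for strict heat induction, was scarce, at 0.616, 0.488 and 0.736 CPM in siControl and 0.620, 0.737 and 0.885 CPM in siSON. The groups overlapped and the gene was not called (log2 fold change 0.28, 95% interval -0.35 to 0.90, adjusted p = 0.402). It became a call with cyclic loess (0.76, adjusted p = 0.0277). HSPA1L (-0.24), HSPA12A (-0.14) and HSPA13 (-0.17) were not called. The last 2 were called lower with library size alone (-0.34 and -0.36), with cyclic loess (-0.27 and -0.39) and without siControl replicate 1. HSPA12A was also called with a mean count of at least 50 (-0.20, adjusted p = 0.0222), and HSPA13 without the low-count filter (-0.16, adjusted p = 0.035).

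HSPA2, an HSP70 best known from male germ cells, fell. It was at 7.09, 8.67 and 7.28 CPM in siControl and 3.19, 3.51 and 3.58 CPM in siSON, with a change of -1.16 on the log2 scale (SE 0.126, adjusted p = 7.39e-06). The gene overlaps AL049869.3 on the other strand.

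HSPA14 encodes an atypical HSP70 that pairs with DNAJC2 on ribosomes. The count table holds this symbol under 2 identifiers that overlap on the plus strand of chromosome 10. ENSG00000187522 (chr10:14838164-14871741, 14 exons) was at 10.8, 10.8 and 10.9 CPM in siControl and 36.1, 35.3 and 37.4 CPM in siSON. This was the second largest rise among the members, 3.34-fold, with a change of 1.74 on the log2 scale (SE 0.070, adjusted p = 5.02e-09). ENSG00000284024 (chr10:14838160-14847018, 4 exons) was at 38.2, 36.2 and 36.9 CPM in siControl and 37.8, 38.4 and 40.0 CPM in siSON. Its groups overlapped and it was not called (0.06, adjusted p = 0.374). How reads from exons that both share were assigned is not given in the sources used here. The 2 identifiers together went from 47.9 ± 1.07 to 75.0 ± 2.08 CPM, a log2 ratio of 0.65, so the size of the HSPA14 rise depends on which identifier is read.

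The HSP110 proteins are distant HSP70 relatives that act as nucleotide exchange factors, and their genes did not move together. HSPA4 was at 200.3, 178 and 198 CPM in siControl and 366, 324 and 332 CPM in siSON (log2 fold change 0.83, SE 0.064, adjusted p = 4.94e-07). HSPA4L was at 62.7, 67.2 and 66.4 CPM in siControl and 43.0, 43.3 and 46.2 CPM in siSON (-0.57, SE 0.061, adjusted p = 6.88e-06). HSPA4 was thus higher in each siSON library and HSPA4L lower in each. Both kept direction and call under each scaling.

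HSPH1, the heat-inducible HSP110, was at 256, 265 and 284 CPM in siControl and 287, 300.4 and 332 CPM in siSON. The groups were separated by a narrow gap, and the change of 0.19 on the log2 scale (SE 0.064, adjusted p = 0.0193) was among the weakest calls. It was lost without siControl replicate 1 (adjusted p = 0.115), siControl replicate 2 (0.1) or siSON replicate 3 (0.0732) and with a mean count of at least 50 (0.0699), was -0.01 with library size alone, and was called lower with cyclic loess (-0.16, adjusted p = 0.034). Within libraries, HSPA4 over HSPA4L went from 2.94 ± 0.274 to 7.73 ± 0.704, and HSPA4 over HSPH1 from 0.716 ± 0.0579 to 1.12 ± 0.144. HSPBP1, another exchange factor of HSP70, fell (-0.50, SE 0.085, adjusted p = 0.000254).

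**Figure D3:**
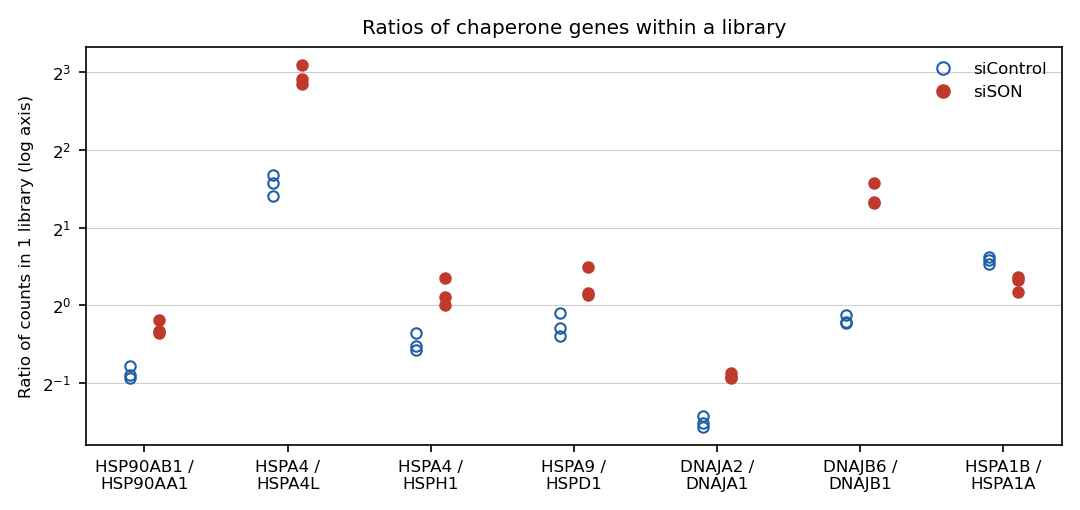
Ratios of the counts of 2 members within 1 library (y axis, log scale), 1 point per library, open for siControl and filled for siSON, for 7 of the 8 ratios. The groups do not overlap for any pair shown, and the widest distance is that of DNAJB6 over DNAJB1.

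Of the small heat shock protein genes among the members, 3 of 8 could be tested. HSPB1, also called HSP27, was at 566, 558 and 542 CPM in siControl and 766, 723 and 736 CPM in siSON. The groups lay well apart, with a change of 0.42 on the log2 scale (SE 0.046, adjusted p = 8.35e-06), which was 0.22 and still called with library size alone and 0.01 (adjusted p = 0.876) with cyclic loess. HSPB8, the small heat shock protein that pairs with the exchange factor BAG3 in selective autophagy, was at 82.2, 59.0 and 59.95 CPM in siControl and 155, 118 and 125 CPM in siSON. The first library of each group was again the highest, and the change was 0.98 on the log2 scale (SE 0.143, adjusted p = 0.000203). HSPB6, a small heat shock protein of muscle, was scarce, with 28, 37 and 23 counts in siControl and 2, 4 and 6 counts in siSON (-2.48, SE 0.516, adjusted p = 0.00117). HSPBAP1, which encodes a binding partner of HSPB1, was not called (0.26, adjusted p = 0.146). It was called higher with cyclic loess (0.55, adjusted p = 0.00713) and without siControl replicate 1 (0.39, adjusted p = 0.0348).

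The mitochondrial chaperonin genes HSPD1 (HSP60, chr2:197486581-197516737, minus strand) and HSPE1 (HSP10, chr2:197499994-197503457, plus strand) overlap on opposite strands, as divergent genes. HSPD1 was at 433, 422 and 461 CPM in siControl and 508, 526 and 553 CPM in siSON (log2 fold change 0.27, SE 0.053, adjusted p = 0.000755). HSPE1 was at 16.8, 17.4 and 18.6 CPM in siControl and 23.3, 22.0 and 23.1 CPM in siSON (0.37, SE 0.076, adjusted p = 0.00100). Both were called higher, and both calls were lost with library size alone (0.07, adjusted p = 0.238, and 0.17, adjusted p = 0.0596). With cyclic loess HSPD1 was called lower (-0.12, adjusted p = 0.0461) and HSPE1 higher (0.43). Although the 2 proteins form 1 machine, HSPE1 stood at 8.92 CPM per kb in siControl against 103 for HSPD1. HSPE1 has 26 named pseudogenes and HSPD1 17, and how reads that fit several places were counted is not given in the sources used here. HSPE1 also overlaps the readthrough gene HSPE1-MOB4 on the same strand, and how reads in shared exons were counted is not given either. The distance in level between HSPE1 and HSPD1 is therefore uncertain.

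J-domain proteins of classes A and B carry clients to HSP70. Of the 7 cytosolic ones tested, 3 were called higher, 1 lower and 3 were not called (57.1% called, against 71.7% of all genes). Scaled by library size only, 2 rose and 2 fell, and after cyclic loess 2 rose and 3 fell. DNAJA1 was at 241, 255 and 268 CPM in siControl and 270, 273 and 281 CPM in siSON, next to each other without overlap, and was not called (log2 fold change 0.11, 95% interval -0.01 to 0.22, adjusted p = 0.0843). It was called higher without siSON replicate 1 (0.14, adjusted p = 0.0446), was -0.09 with library size alone and was called lower with cyclic loess (-0.23, adjusted p = 0.00167). Its class A partner DNAJA2 rose by 0.70 (SE 0.053, adjusted p = 3.75e-07), and DNAJA2 over DNAJA1 went from 0.353 ± 0.0175 to 0.532 ± 0.0118 within libraries.

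DNAJB1, the classical heat-inducible HSP40, was at 121, 129 and 132 CPM in siControl and 152, 159 and 162 CPM in siSON. The groups did not overlap, and the change was 0.31 on the log2 scale (SE 0.055, adjusted p = 0.00035). The call was lost with library size alone (0.11, adjusted p = 0.0992) and cyclic loess (0.03, adjusted p = 0.623). DNAJB1 overlaps TECR and MIR639 on the other strand.

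DNAJB6 (chr7:157335381-157417439, plus strand, 8 exons), a J-domain protein known for holding back aggregation of polyglutamine proteins, had the largest rise of all members. It was at 111, 109.9 and 114 CPM in siControl and 454, 398 and 409 CPM in siSON. The change was 3.77-fold, a change of 1.91 on the log2 scale (SE 0.059, adjusted p = 1.33e-09), and it was 1.72 with library size alone and 1.59 with cyclic loess. DNAJB6 stood below DNAJB1 in each siControl library, at a ratio of 0.878 ± 0.0344, and above it in each siSON library, at 2.67 ± 0.273. The gene overlaps no other gene in the annotation.

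DNAJB5 moved as far the other way. It was at 27.6, 30.3 and 32.5 CPM in siControl and 6.77, 9.09 and 8.10 CPM in siSON, a change of -1.92 on the log2 scale (SE 0.112, adjusted p = 5.94e-08). DNAJB2 (-0.04) and DNAJB4 (0.07) were not called, and their groups overlapped. DNAJB2 was called lower with library size alone (-0.24) and cyclic loess (-0.27).

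**Figure D4:**
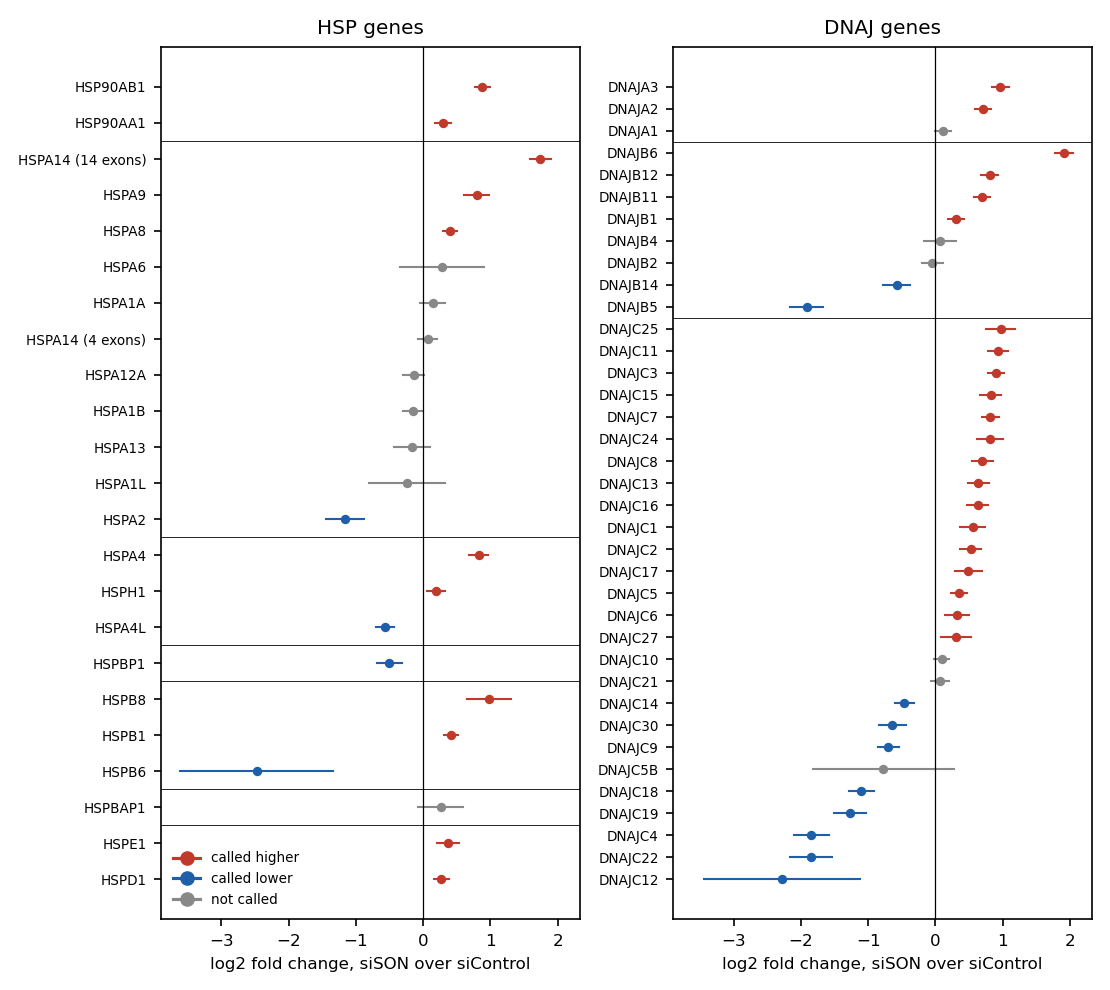
Log2 fold change of siSON over siControl (x axis) with its 95% interval for the 60 members tested, HSP genes on the left and DNAJ genes on the right, ordered by size within each subfamily and coloured by call. In the DNAJ panel DNAJB6 is alone near 1.91, while 6 genes lie below -1.

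In the endoplasmic reticulum, J-domain proteins serve the HSP70 of that compartment in folding, export and degradation. Of 10 such genes, 6 were called higher, 3 lower and 1 was not called, with a median log2 fold change of 0.59. The same split of 6 to 3 was found with library size alone, and 6 to 4 with cyclic loess. Those called higher were DNAJC25 (0.97), DNAJC3 (0.91, an inhibitor of the kinase PERK), DNAJB12 (0.80), DNAJB11 (0.69), DNAJC16 (0.62) and DNAJC1 (0.55). DNAJC25 overlaps DNAJC25-GNG10 on the same strand. DNAJC10, a disulfide reductase, was not called (0.09) and was called lower with cyclic loess (-0.25). DNAJB14 (-0.58) and DNAJC14 (-0.47) fell.

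The third that fell was DNAJC18, with 49.8, 52.2 and 60.7 CPM in siControl and 23.9, 26.0 and 26.0 CPM in siSON. Its change of -1.10 on the log2 scale (SE 0.084, adjusted p = 4.23e-07) contrasts with that of DNAJB12, a related membrane-anchored protein. DNAJB12 was at 73.6, 71.5 and 73.1 CPM in siControl and 135, 123 and 123 CPM in siSON. No siSON value of DNAJC18 reached a siControl value, and the reverse held for DNAJB12.

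Of the 8 mitochondrial members, 6 were called higher and 2 lower, with a median of 0.58. The share called was 100%, against 71.7% of all genes. The split was 4 to 2 with library size alone and with cyclic loess 5 to 3. DNAJA3 (0.96), DNAJC11 (0.93, a protein of the inner-membrane organising complex), DNAJC15 (0.82) and HSPA9 were called higher under each scaling. DNAJC15 and DNAJC19 are related J-domain proteins of the inner membrane, where DNAJC19 belongs to the import motor around HSPA9, and they went opposite ways. DNAJC15 was at 20.6, 22.7 and 21.9 CPM in siControl and 39.8, 36.9 and 38.3 CPM in siSON.

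DNAJC19 was at 15.4, 16.2 and 16.2 CPM in siControl and 5.74, 7.48 and 6.71 CPM in siSON, a change of -1.27 on the log2 scale (SE 0.107, adjusted p = 9.92e-07). It was lower in each siSON library than in any siControl library. DNAJC19 overlaps SOX2-OT on the other strand and has 9 named pseudogenes. Those held 2.58% of the counts of gene plus pseudogenes in siControl and 3.20% in siSON. DNAJC30, an intronless gene, also fell (-0.64, SE 0.092, adjusted p = 7.64e-05), and it overlaps BUD23 on the other strand.

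Of 5 nuclear or ribosome-linked J-domain genes, DNAJC8 (0.70), the ribosome-associated DNAJC2 (0.52) and DNAJC17 (0.49) were called higher. DNAJC8 and DNAJC17 are linked to the spliceosome. DNAJC9, a histone chaperone, fell by 0.70 (SE 0.071, adjusted p = 4.71e-06), from 148, 148 and 152 CPM to 81.2, 96.5 and 98.2 CPM. DNAJC9 overlaps MRPS16 on the same strand, so part of its reads may belong to that gene. DNAJC21 was not called (0.07).

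The 3 J-domain genes of vesicles and endosomes were called higher, as were 35.2% of all genes. DNAJC13, an endosomal protein, rose by 0.64, DNAJC5, the cysteine string protein of secretory vesicles, by 0.35, and DNAJC6, the clathrin-uncoating auxilin, by 0.32. The DNAJC6 call was lost with library size alone (0.13, adjusted p = 0.17) and that of DNAJC5 with cyclic loess (0.07, adjusted p = 0.226).

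Among the remaining J-domain genes, the cytosolic DNAJC7 (0.82) and DNAJC24 (0.80), which serves diphthamide synthesis, were called higher under each scaling. DNAJC27 (0.31, adjusted p = 0.02) was called, and the call was lost without siControl replicate 1 (0.068), siControl replicate 2 (0.0901) or siSON replicate 2 (0.0631) and with library size alone (0.367, all adjusted p). DNAJC5B, with 4 to 14 counts per library, was not called (-0.78, 95% interval -1.82 to 0.27). The changes of at least 2-fold in this group were all falls.

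DNAJC22 was at 28.9, 31.4 and 34.0 CPM in siControl and 6.63, 10.3 and 9.25 CPM in siSON (-1.86, SE 0.140, adjusted p = 5.09e-07). DNAJC4 was at 9.52, 10.2 and 8.85 CPM in siControl and 2.76, 2.42 and 2.75 CPM in siSON (-1.84, SE 0.119, adjusted p = 1.18e-07). DNAJC4 overlaps NUDT22 on the same strand, so part of its reads may belong to that gene. DNAJC12, a helper of the aromatic amino acid hydroxylases, had 29, 52 and 26 counts in siControl and 5, 3 and 9 counts in siSON (-2.28, SE 0.527, adjusted p = 0.00234). For these 3 genes no siSON library reached the lowest siControl library.

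Members known as heat-inducible to some degree were read as 1 group of 13, chosen after their values were seen. It holds HSPA1A, HSPA1B, HSPA6, HSPA4L, HSPH1, HSP90AA1, HSPB1, HSPB8, DNAJA1, DNAJB1, HSPD1, HSPE1 and also HSPA8, which is mainly constitutive. Of these, 8 were called higher, 1 lower (HSPA4L) and 4 were not called (HSPA1A, HSPA1B, HSPA6 and DNAJA1), and none passed 2-fold. The share called was 69.2%, close to the 71.7% of all genes. The median log2 fold change was 0.28, against -0.03 over all genes. Library size alone left 3 called higher and 2 lower, and cyclic loess called 3 higher and 6 lower. HSPB8 had the largest rise in this group, and HSPA6, HSPA1A and HSPA1B lay between -0.15 and 0.28.

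The 13 members that could not be tested had too few counts. DNAJB7, DNAJB8, HSPB3 and the readthrough genes DNAJC25-GNG10 and HSPB2-C11orf52 had 0 counts in all 6 libraries. HSPB2 had 10, 12 and 10 counts in siControl and 0 in each siSON library. Set against a floor of 3 counts over the siSON group, this is at least 8.22-fold lower in CPM. DNAJB13 had 3, 6 and 2 counts in siControl and 0 in siSON, at least 2.83-fold lower on the same floor. DNAJC5G had 14 counts in siControl replicate 1 and 0 elsewhere, and HSPE1-MOB4 had 1 count in siControl and 14 over the 3 siSON libraries. HSPA12B, DNAJA4, HSPB7 and HSPB9 had at most 7 counts in any library.

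The members were also set against the structure of their main transcripts in GENCODE 29. Across the 60 members, the log2 fold change had a Spearman rho of 0.39 with the number of introns, against 0.05 over 13008 protein-coding genes. For the median intron length rho was 0.08 among the members and 0.25 over protein-coding genes, and for GC content -0.09 and -0.21. Genes are not independent replicates and these values share the same 6 libraries, so they are given as a description. The 4 intronless members (DNAJC30, HSPA1A, HSPA1B and HSPA6) had a median of -0.01, against -0.16 over 333 intronless protein-coding genes. The 6 members with a median intron under 500 bases were HSP90AB1, HSP90AA1, HSPA8, HSPB1, DNAJC9 and DNAJC14. Of these, 4 were higher and 2 lower, with a median of 0.35, against -0.67 over 2114 protein-coding genes with introns that short. With cyclic loess, DNAJC9, DNAJC14, HSP90AA1 and HSPA8 were below 0 (-0.96, -0.59, -0.17 and -0.05), HSPB1 was 0.01 and HSP90AB1 0.43. The median of the 2114 genes is given with TMM only.

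The machinery around these chaperones was followed in 7 lists of partner genes. For comparison, 71.7% of all 16591 genes tested were called, 35.2% higher and 36.5% lower in siSON. Of the HSF genes and their regulators, HSF1 was at 76.1, 82.0 and 79.0 CPM in siControl and 64.1, 74.0 and 67.4 CPM in siSON (log2 fold change -0.21, SE 0.066, adjusted p = 0.0148). The groups were close without overlapping, and the call was lost without siControl replicate 2 (0.0515), siSON replicate 1 (0.052) or siSON replicate 3 (0.0576, all adjusted p). HSF2 rose by 0.56 (SE 0.077, adjusted p = 5.55e-05), as did the HSF-binding HSBP1 (0.39) and its relative HSBP1L1 (0.99). HSF4, the lens factor, fell by 2.65. All 5 genes tested were called, 3 higher and 2 lower, with 2 and 2 under cyclic loess.

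Of the 15 exchange factors and partners of HSP70, 9 were called higher and 4 lower, or 6 and 5 with library size alone. BAG3, the partner of HSPB8, was at 187, 187 and 184 CPM in siControl and 390, 359 and 386 CPM in siSON (1.02, SE 0.050, adjusted p = 1.61e-08). STUB1, also called CHIP, the ubiquitin ligase that tags HSP70 and HSP90 clients, was at 81.1, 83.6 and 81.4 CPM in siControl and 14.2, 16.3 and 14.5 CPM in siSON (-2.45, SE 0.071, adjusted p = 9.93e-10). HYOU1, an exchange factor of the endoplasmic reticulum, fell by 2.14 (SE 0.069, adjusted p = 1.60e-09). SIL1, another exchange factor there, named after its value was seen, rose (0.37, SE 0.074, adjusted p = 0.000837). BAG3, STUB1 and HYOU1, named for the smallest p in this list, each changed by more than HSPA4, HSPA4L or HSPH1.

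Of 26 HSP90 co-chaperones, 16 were called higher, 7 lower and 3 were not called, with a median of 0.38. With library size alone 13 were higher and 8 lower (median 0.186), and with cyclic loess 13 and 7 (median 0.125). The ATPase activator AHSA1 was at 91.1, 90.9 and 91.9 CPM in siControl and 192, 188 and 191 CPM in siSON (1.06, SE 0.047, adjusted p = 9.78e-09). UNC45A, a myosin co-chaperone, fell by 1.26 (SE 0.055, adjusted p = 8.68e-09) and TELO2, which with HSP90 assembles large kinases, by 2.38 (SE 0.093, adjusted p = 4.35e-09). UNC45A overlaps HDDC3 and TELO2 overlaps IFT140, both on the other strand.

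The cytosolic chaperonin TRiC, which folds actin and tubulin, and prefoldin, which feeds it, moved in 1 direction. Of 9 TRiC genes, 8 were called higher, 0 lower and 1 was not called, with a median of 0.62, and the split was the same with library size alone and cyclic loess. CCT5 (0.90), CCT3 (0.86) and CCT7 (0.67) had the smallest p. All 9 prefoldin and prefoldin-like genes were called higher with TMM, with a median of 0.71. PDRG1 rose by 1.43, PFDN4 by 1.20 and PFDN1 by 1.11. With library size alone 6 were called higher and 0 lower, and with cyclic loess 7 higher and 1 lower.

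Mitochondrial chaperones and proteases were mixed. Of 12, 6 were called higher and 4 lower. The split was 3 to 6 when libraries were scaled by size only, and 4 to 4 after cyclic loess. YME1L1 (0.71) and CLPP (0.53) rose, and LONP1 fell from 87.2, 78.5 and 81.4 CPM to 41.4, 31.8 and 28.5 CPM (adjusted p = 3.71e-06). Of 12 HSF1 targets without an HSP or DNAJ symbol, 9 were called higher and 1 lower. The split was 6 to 2 with library size alone and 7 to 3 with cyclic loess. The lower gene, named after its value was seen, was CRYAB, a small heat shock protein that the naming rule did not find. CRYAB fell from a mean of 3.92 CPM in siControl to 0.977 CPM in siSON (adjusted p = 1.11e-06, edgeR). CRYAB overlaps HSPB2 on the other strand. Of these 12, 7 are also in the lists of HSP70 partners and HSP90 co-chaperones above, so the counts are not separate. SERPINH1, the collagen chaperone HSP47, rose from 386, 437 and 431 CPM to 893, 885 and 894 CPM (1.09, SE 0.055, adjusted p = 1.92e-08).

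**Figure D5:**
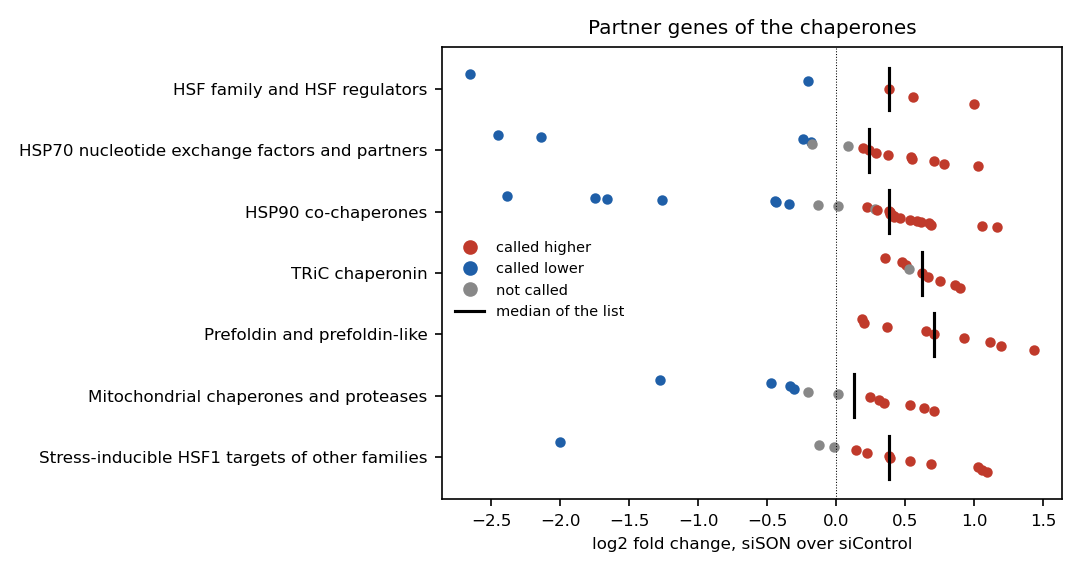
Log2 fold change of siSON over siControl (x axis) for each tested gene of the 7 partner lists (y axis), coloured by call, with a bar at each list's median. TRiC and prefoldin genes lie on the right of 0, and the other lists hold genes on both sides.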

How the data were processed

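The deposited table gives raw counts of reads for each gene, whole numbers without normalization, in 1 column per library (6 libraries). Per the submitters' processing notes, cutadapt 1.16, STAR 2.5.2a, featureCounts 1.6.2, DESeq2 1.28.1 and the build hg38 were used; their settings, the handling of strand and of reads that map to several places, and the annotation release are not given in the sources used here. Positions, exons and overlaps were taken from GENCODE 29 (GRCh38). Overlaps with other genes are named for some members only. The groups were compared by edgeR 4.0.16 (R 4.3.3) using filterByExpr (minimum count 10), TMM scaling, robust quasi-likelihood dispersions, a design holding only the group, and Benjamini-Hochberg adjustment over 16591 genes. Called means an adjusted p under 0.05. Standard errors (SE) were derived from the quasi-likelihood F, as the size of the log2 change over the root of F. CPM values use TMM-scaled library sizes, and levels between genes are CPM per kb of merged exons. The fit was tested on simulated counts in which few genes changed, as many up as down, so this did not test the choice of scaling. Library totals, and the CPM that 3 counts correspond to, stand in the results.

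The labels do not say whether libraries came from separate cultures, so p-values measure the spread between these libraries, which may be technical. The members and partner lists were chosen with earlier results of these data known, and the role groups, the 8 ratios and the promoter motif after the members' values were seen. Members named with full values are 12 chaperones fixed in the naming rule and those called with at least a 2-fold change. From each partner list, the 3 tested genes with the smallest p are named, with HSF1, HSF2, SIL1 and CRYAB. Other members are named where their group is described. HSPA4, HSPA4L, HSPA6, HSPB8, DNAJB12, DNAJC15, DNAJC9 and the shorter HSPA14 were given library by library after their values were seen. A further partner list is not reported here. Splicing was not analysed here, and promoters of chromosome 8 were left out of the motif search. The alternatives were DESeq2 1.42.0, limma-voom and cyclic loess (limma 3.58.1), relative log expression (RLE) factors, library size alone, no low-count filter, a mean count of at least 50, the replicate number as a block, and leaving out each library.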

Additional observations from a re-analysis of the deposited data

How the results depend on the processing

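Of 56 members with a value under all 14 alternatives, 34 kept direction and call. HSPB6, DNAJC12, DNAJC5B and HSPA6 had none with a mean count of at least 50, and 3 of these kept both under the other 13. Both were kept by 60 of 60 with RLE factors, DESeq2 or limma-voom. Scaling mattered most. Cyclic loess called 23 members lower, and the members' median was 0.05 with it and 0.088 with library size alone. Under the latter the sign turned for DNAJA1 (-0.089), DNAJB4 (-0.12), DNAJC10 (-0.10), DNAJC21 (-0.13), HSPH1 (-0.007), the 4-exon HSPA14 (-0.13) and HSPA1A (-0.058). With cyclic loess it turned for DNAJA1 (-0.23), DNAJB4 (-0.083), DNAJC10 (-0.25), DNAJC21 (-0.077), HSPH1 (-0.16), the 4-exon HSPA14 (-0.02), HSPA1L (0.19), HSPA8 (-0.05), HSP90AA1 (-0.17) and HSPD1 (-0.12). Leaving out 1 library at a time gave DNAJB2 -0.119 to 0.011 (above 0 without siSON replicate 3), DNAJB4 -0.019 to 0.205 (below 0 without siControl replicate 1, called without siSON replicate 1) and HSPA1L -0.467 to 0.013 (above 0 without siControl replicate 3). The cause was not tested.

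Leaving out each library gave 44 to 48 members called, 30 to 34 higher, 14 to 17 lower, 10 to 12 at least 2-fold, and a median of 0.23 to 0.33. The correlations of same-numbered libraries' deviations were 0.194, 0.0461 and 0.118, against -0.138 to 0.0286 for unlike numbers. Each library thus correlated best with its own number. The labels do not say what the numbers stand for, so they were not taken as pairs in the main fit. With the replicate number as a block, 50 members were called, 34 higher and 16 lower; DNAJA1 (0.11, adjusted p = 0.0266), HSPA12A (-0.14, 0.0373), HSPA13 (-0.16, 0.00833) and HSPBAP1 (0.26, 0.0355) became calls. Members with under about 50 counts per library, such as HSPB6 and DNAJC12, have wide intervals.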
